A study of Rattus norvegicus with 22 samples.

Results

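The genes described here are 9 mucins and mucous gland factors: the secreted gel-forming mucins Muc19 and Muc5b, the membrane mucins Muc1 and Muc4, the trefoil peptides Tff1 and Tff3, the secretory cell disulfide isomerase Agr2, and the transcription factors Spdef and Foxa1. Members were chosen by the gene name printed on the array, with the brightest probe standing for a gene that has several, and 7 of the 9 were found in this way among 19167 named genes. Muc5b and Muc4 do not appear under these names. Muc5b was found through RGD1561983, an older name that the RefSeq table gives for it, and Muc4 was taken from a probe described as a fragment of the pre-sialomucin complex, the older name of rat Muc4. Both lookups were added after the data were seen, and the identity of the Muc4 probe rests on that description alone. The data are 22 one-color Agilent arrays of tongue tissue from 11 male F344 rats, each of which gave an oral squamous cell carcinoma (OSCC) and a piece of adjacent, phenotypically normal tongue. The tumors had been induced with the carcinogen 4-nitroquinoline-1-oxide (4-NQO), which the rats drank in their water at 20 ppm over 10 weeks. The labels put the animals at about 33 weeks of age and the harvest at 23 to 26 weeks after the first exposure. The sample titles call every array untreated, and the labels of the normal pieces name no treatment, whereas the study's methods take both pieces from the same carcinogen-treated rat, so the normal pieces stand for exposed tongue and not for tongue of unexposed animals.

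Mucus is made by mucous acini of salivary glands and by goblet cells of other epithelia. Gel-forming mucins are large proteins whose cysteine-rich ends are joined into chains and whose central repeats carry dense O-linked sugars, while membrane mucins stay anchored to the cell and form part of its surface coat. In the tongue, minor salivary glands lie between the muscle bundles, with serous (von Ebner) glands near the circumvallate papillae and mucous (Weber) glands behind them. Agr2 assists mucin folding in the endoplasmic reticulum, Spdef is an ETS-family factor that drives the maturation of goblet and mucous cells, and Foxa1 is a pioneer factor of many glandular epithelia. Trefoil peptides are small secreted proteins that are packed and released together with mucins. These are bulk tissue pieces, so a higher signal from more mucous cells and a higher signal per cell cannot be told apart.

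The probes are 60 bases long and read as follows, 5′ to 3′ along the transcript. Those of Muc19 and Muc5b are shown because the gel-forming mucins carry the contrast described below, and capitals mark their cysteine codons in the open reading frame. The Muc19 probe lies at chr7:130416247-130416899 (plus strand) and that of Muc5b at chr1:201992377-201992436 (plus strand). The Agr2 probe at chr6:54709562-54710914 (plus strand) and the Spdef probe at chr20:5928348-5928407 (minus strand) hold no such codon and are printed in lower case. Positions come from the array annotation (assembly rn4), and an interval longer than the probe spans an intron.
Muc19: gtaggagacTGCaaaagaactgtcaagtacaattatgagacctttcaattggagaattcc
Muc5b: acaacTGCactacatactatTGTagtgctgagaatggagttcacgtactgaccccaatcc
Agr2: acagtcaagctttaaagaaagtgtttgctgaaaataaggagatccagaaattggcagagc
Spdef: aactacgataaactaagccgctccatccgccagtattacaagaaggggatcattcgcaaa

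Among the 7 members found by name, Agr2, Tff1 and Spdef rose in OSCC and none fell, with the test below. Muc19, Muc1, Tff3 and Foxa1 did not pass it. Of all 19167 named genes, 7.48% passed in the higher direction and 7.24% in the lower one. With the added lookups Muc5b and Muc4 passed too, which makes 5 of 9 members higher. The test was limma with rat and tissue as terms, Benjamini-Hochberg adjusted over 30367 probes, and calls required an adjusted p under 0.05 together with a change of 2-fold or more. Levels are log2 signals relative to the 75th percentile of the same array, so they can be compared between arrays for a gene but not between genes. The median difference over all named genes was -0.21. The calls of the members were made across pieces that differed widely from each other: every member that rose had a carcinoma range that overlapped the range of normal tissue.

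Of the secreted mucins, Muc5b, the main gel-forming mucin of saliva, rose in OSCC. In normal tissue its level lay between -6.41 and -4.94, with a median of -6.12, and none of the 11 arrays showed it well above background. In OSCC it ran from -6.65 to 6.64 with a median of -0.45, and it was well above background on 7 of 11 arrays. OSCC values of rats 17, 16, 21, 24 and 9 were the highest, at 6.64, 4.44, 4.11, 3.34 and 2.59. Those of rats 4 and 11 followed at -0.45 and -2.0, and rats 13, 22, 25 and 26 stayed at the background. The tissue means were -6.02 in normal tissue and -0.17 in OSCC, a difference of 5.85 (SE 1.31, adjusted p = 0.0048 by limma), with 10 of 11 pairs higher in OSCC. Because the normal arrays give only an upper bound, the fold is given as an approximate lower limit, at least 13.2-fold for Muc5b. The limit sets the OSCC mean against the lowest signal of any probe well above background on each normal array. The probe's own signal is used if that is higher, and the same was done for the other limits given here. Values below background enter the mean of the brighter tissue as read, and the SE is not allowed for.

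Muc19, the gel-forming mucin of mucous acini in the sublingual and minor glands, was well above background in fewer carcinomas than Muc5b and did not pass the test. Its normal level lay between -6.50 and -3.95, with a median of -5.71, below the background criterion on all 11 arrays. In OSCC the lowest, median and highest values were -7.11, -6.07 and 3.67. The OSCC values of rats 17, 16, 21, 24 and 9 were 3.67, 1.32, 1.14, 0.15 and -1.34, all well above background, and those of the other 6 rats lay between -7.11 and -6.07, below it. The mean difference was 2.51 (SE 1.04, adjusted p = 0.065 by limma), with 6 of 11 pairs higher. The same 5 carcinomas were above every normal piece. After quantile normalization between arrays the difference was 2.85 and passed (adjusted p = 0.045). Smgc, the submandibular gland protein C whose annotated start in RefSeq is that of Muc19, was measured by its own probe at chr7:130327951-130328010 (rn4, plus strand). It was well above background in OSCC of the same 5 rats and of rats 4 and 11, with a difference of 2.58 (SE 1.00, adjusted p = 0.051), and it did not pass either.

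The membrane mucins differed from each other. The Muc4 probe (chr11:69830461-69830520, minus strand, rn4), read here for the mucin that can bind ErbB2, lay between -6.60 and -5.16 in normal tissue, with a median of -5.80 and no array well above background. In OSCC it ran from -6.22 to 2.0 with a median of -1.79, and 9 of 11 arrays were well above background, the exceptions being rats 22 and 26. It rose in OSCC by 3.37 (SE 0.71, adjusted p = 0.0034 by limma), from a mean of -5.88 to -2.51, at least 2.61-fold, in 10 of 11 pairs. It reached beyond the rats with high Muc19. The OSCC piece of rat 11 read -1.60 for Muc4 against -6.49 for Muc19, and that of rat 25 read -2.95 against -7.11, in each case with Muc4 well above background and Muc19 not. Muc1, a widespread membrane mucin of glandular epithelia (chr2:181402014-181403312, plus strand, rn4), was well above background in 1 OSCC piece, that of rat 24 at -4.44. Its normal values ran from -6.78 to -5.14 around a median of -6.12, and its OSCC values from -6.78 to -3.92 around a median of -6.39. The difference was 0.04 (SE 0.34, adjusted p = 0.93), its sign turned when each array was centred on its median instead (-0.16), and no change could be detected at this signal.

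**Figure D1:**
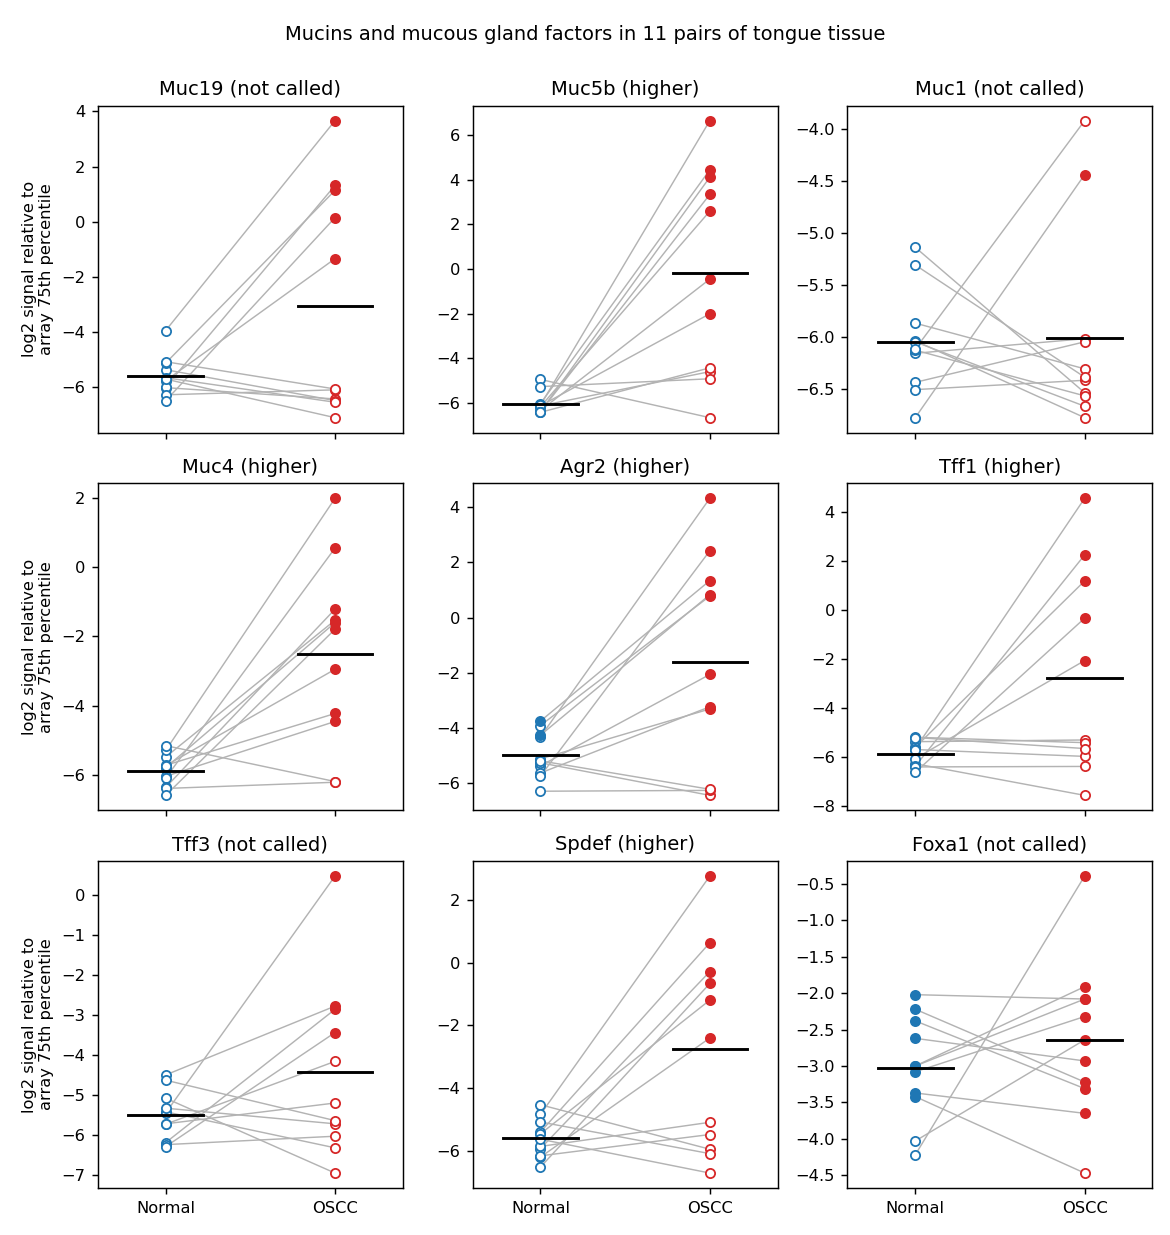
Levels of the 9 members in normal tissue and OSCC, as log2 signal relative to the 75th percentile of the array, with a separate vertical scale for each gene. Each point is 1 array, gray lines join the pieces of a rat, filled points were well above background, and black bars are means of 11; normal points of all genes but Foxa1 and Agr2 are unfilled, and the OSCC points of Muc19 and Tff1 separate into 5 filled and 6 unfilled ones.

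The trefoil peptides lie in a cluster on chromosome 20, where the array annotation places the probes of Tff3 at chr20:9471911-9471970, Tff2 at chr20:9492341-9492400 and Tff1 at chr20:9526691-9526749, all on the minus strand of rn4. In normal tissue Tff1 had levels from -6.62 to -5.19 with a median of -5.69, and no array was well above background. In OSCC it ran from -7.56 to 4.56 with a median of -5.30. It was well above background in the OSCC pieces of rats 17, 21, 16, 24 and 9, at 4.56, 2.25, 1.19, -0.33 and -2.06, the rats with Muc19 above background. The mean rose from -5.86 to -2.79, a difference of 3.07 (SE 1.14, adjusted p = 0.045 by limma), at least 2.16-fold, with 7 of 11 pairs higher. This call was close to its threshold: it was lost when any 1 of 9 of the 11 pairs was left out (rats 9, 11, 13, 16, 17, 21, 24, 25 and 26), with adjusted p from 0.050 to 0.088. Tff3, the trefoil peptide of goblet and salivary mucous cells, had a normal range of -6.28 to -4.49 around a median of -5.44, and an OSCC range of -6.94 to 0.48 around a median of -5.19. It was well above background in OSCC of rats 17, 16, 21 and 24 and on no normal array. Its difference was 1.09 (SE 0.62, adjusted p = 0.16), with 7 of 11 pairs higher, and it did not pass. Tff2, a trefoil peptide of gastric mucous neck cells that is not among the 9 members, rose by 7.16 (SE 1.64, adjusted p = 0.0055), from a mean of -5.96 to 1.21, at least 34.4-fold, in 10 of 11 pairs. Its OSCC values in rats 17, 21, 16, 24 and 9 were 9.45, 7.31, 7.02, 6.26 and 4.97, and the other 6 rats lay between -6.34 and -1.35.

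Agr2, which has 10 spots on the array, was well above background in pieces of both tissues. In normal tissue it lay between -6.29 and -3.75, with a median of -5.19, and was well above background in rats 21 and 24. In OSCC it ran from -6.44 to 4.32 with a median of -2.06 and was well above background on 8 of 11 arrays, the exceptions being rats 13, 22 and 26. Agr2 rose from a mean of -4.98 to -1.62, a difference of 3.36 (SE 0.91, adjusted p = 0.013 by limma), with 9 of 11 pairs higher. No fold is given, since the normal mean rests on 9 arrays that were not well above background. The highest OSCC values were those of rats 17 and 16, at 4.32 and 2.42, followed by rats 21, 24 and 9 at 1.34, 0.83 and 0.78. Leaving out any 1 pair kept this call, with adjusted p between 0.0091 and 0.030.

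Of the transcription factors, Spdef rose and Foxa1 did not pass. The normal values of Spdef ran from -6.52 to -4.53 with a median of -5.63, below the background criterion on all arrays. In OSCC it ran from -6.71 to 2.77 with a median of -2.40 and was well above background in rats 17, 16, 9, 24, 21 and 4, at 2.77, 0.64, -0.28, -0.66, -1.19 and -2.40. The other 5 OSCC pieces lay between -6.71 and -5.09, below background. The mean rose from -5.60 to -2.77, by 2.83 (SE 0.89, adjusted p = 0.026 by limma), at least 2.19-fold, with 8 of 11 pairs higher. A second Spdef probe (chr20:5927866-5927925) was higher by 3.12 (SE 1.06, adjusted p = 0.033) and above background in 6 OSCC pieces. The Spdef call was lost under 7 of 25 alternatives of the processing, described at the end. Among them it was lost without rat 4, 9 or 16, with adjusted p from 0.052 to 0.060. Foxa1 (chr6:78005464-78005523, minus strand) exceeded the background clearly in 9 normal pieces and in 10 of OSCC. Its normal levels ran from -4.22 to -2.02 around a median of -3.0 and its OSCC levels from -4.47 to -0.39 around a median of -2.64, with a difference of 0.40 (SE 0.39, adjusted p = 0.41) and 5 of 11 pairs higher. A second Foxa1 probe stayed at the background in all 22 pieces.

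A pair counted as higher above can have both pieces at the background, where values have no order. The pairs that were higher with at least 1 piece well above background numbered 9 for Muc4, 8 for Agr2, 7 for Muc5b, 6 for Spdef, 5 for Tff1 and Muc19 and 4 for Tff3.

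The carcinomas thus differed in how much of the set they carried. The number of the 9 members well above background in the OSCC piece was 9 in rat 24, 8 in rats 16, 17 and 21, 7 in rat 9, 5 in rat 4, 4 in rat 11, 3 in rat 25, 2 in rat 13, 1 in rat 26 and 0 in rat 22. In the normal pieces it was between 0 and 2, and the member present there was Foxa1 or Agr2. Rat 17 had the highest OSCC value for all 9 members, though its Muc1 value was not well above background. Its OSCC array also had the lowest 75th percentile of the OSCC arrays, at 338.7 units. The part of this scaling in its levels was not tested. Over the 11 OSCC arrays the levels of Muc5b and Spdef had a Spearman rho of 0.96, those of Muc5b and Agr2 0.92, those of Tff1 and Tff3 0.93 and those of Tff1 and Muc4 0.90. Foxa1 had a rho of 0.32 with Muc19, 0.35 with Muc5b and 0.66 with Muc4. These correlations are given as a description, since values below background have no order and the points share their array scaling.

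**Figure D2:**
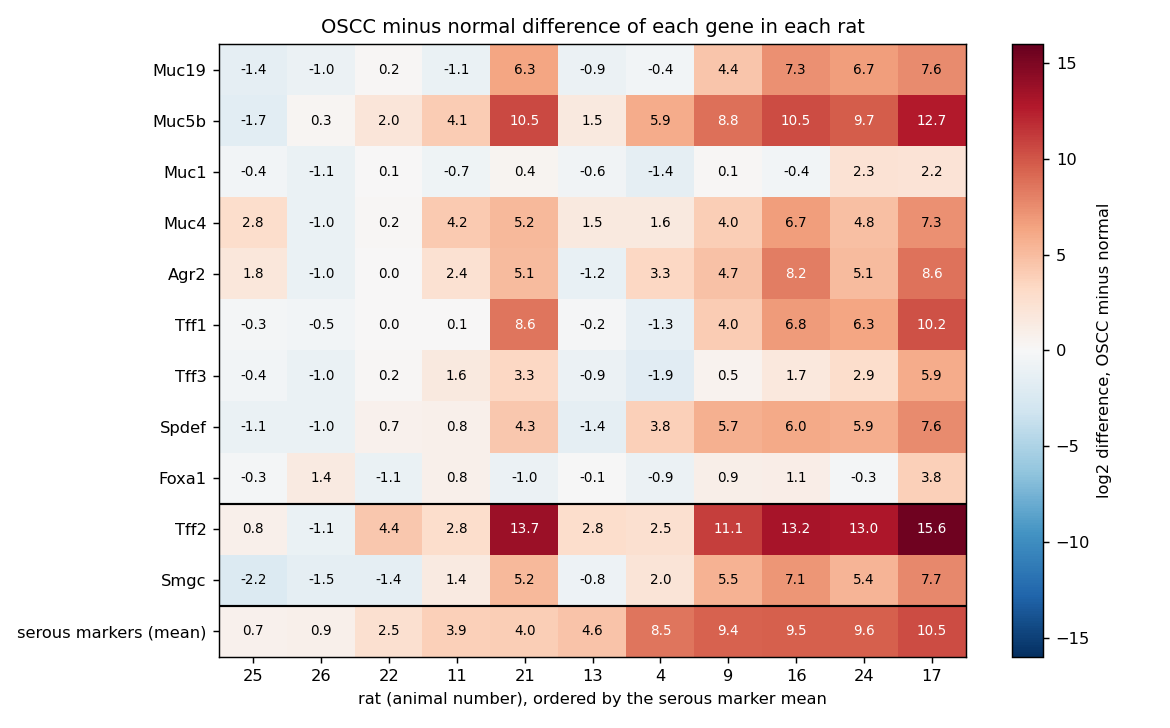
Log2 difference of OSCC minus normal tissue for the 9 members, for Tff2 and Smgc, and for the mean of 13 serous gland markers, in each of the 11 rats (columns, ordered by the serous mean). Rat 21 has a Muc5b difference of 10.50 beside a serous difference of 3.95, and rat 4 has a Muc19 difference of -0.41 beside a serous difference of 8.50.

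The marker lists of other cells in the tongue differed between the tissues in different ways. Of 13 serous gland markers, such as the lipocalins Vegp1 and Vegp2, gastric lipase Lipf and amylase Amy1a, 11 rose in OSCC and none fell, with a median difference of 6.62 beside -0.21 over all genes. Their mean level was between -5.61 and -3.77 in normal tissue and between -3.55 and 5.42 in OSCC, and 7 of the 13 were well above background in no normal piece. Of 7 duct and simple epithelium markers, 4 rose and none fell, with mean levels from -3.76 to -2.29 in normal tissue and -3.71 to 1.46 in OSCC. Of 4 plasma cell markers, 3 rose and none fell, with mean levels from -2.89 to -2.62 in normal tissue and from -2.27 to 2.05 in OSCC. In OSCC the plasma cell mean was highest in rat 9 (2.05) and lowest in rat 22 (-2.27). It was 1.59, 1.38 and 1.35 in rats 13, 25 and 26 and 0.98, 0.95 and 0.84 in rats 11, 17 and 16. In rats 24, 4 and 21 it was -0.19, -0.42 and -0.43. Of 7 skeletal muscle markers, 1 rose and 4 fell, with mean levels from 4.73 to 6.60 in normal tissue and 0.88 to 7.59 in OSCC, the highest value being that of rats 21 and 24. Of 5 myoepithelium and smooth muscle markers, none rose and 1 fell, with mean levels from 1.02 to 2.37 in normal tissue and 0.26 to 2.51 in OSCC. The 8 squamous epithelium markers that define the tongue surface and the carcinoma were well above background on all 22 arrays, and of these 2 rose and 1 fell. The part of gland tissue in the members' differences was not tested.

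The serous and the mucous genes did not follow each other in every rat. By the serous mean difference, the pairs fell into 5 pairs between 8.50 and 10.47 (rats 4, 9, 16, 17 and 24) and 6 pairs between 0.69 and 4.60 (rats 11, 13, 21, 22, 25 and 26), with a gap of 39.8% of the range between them. Median differences of the members are given for both groups as a description. The share of all genes with a higher median in the first 5 pairs was not computed. Values at the background have no order, and Muc1 was well above background in only 1 OSCC piece. The medians in these 5 and 6 pairs were 9.71 and 1.76 for Muc5b, 5.86 and -0.16 for Spdef and 5.09 and 0.92 for Agr2. They were 4.8 and 2.15 for Muc4, 6.3 and -0.1 for Tff1, 6.65 and -0.95 for Muc19 and 1.71 and -0.09 for Tff3. For Muc1 they were 0.13 and -0.53, and for Foxa1 0.93 and -0.18. Among the first 5, rat 4 had a serous difference of 8.50 and Muc5b, Spdef and Agr2 differences of 5.88, 3.81 and 3.30, yet its OSCC piece read -6.43 for Muc19 and -7.56 for Tff1, not well above background. Among the other 6, rat 21 had a serous difference of 3.95 and differences of 10.50 for Muc5b, 8.62 for Tff1 and 6.27 for Muc19. Rat 13, whose serous difference of 4.60 was higher, had differences of 1.53 for Muc5b, -0.22 for Tff1 and -0.90 for Muc19. Because the pairs separate in this way, no correlation over all 11 was computed. Within the 6 pairs of lower serous difference the OSCC piece was well above background for Spdef in 1, for Muc5b in 2, for Agr2 in 3, for Muc4 in 4 and for Foxa1 in 5. The other values lie at the background and have no order, so nothing is read from correlations of these members with the serous mean over these pairs. None of the 5 passed for Pearson's r (0.64 for Muc5b, 0.50 for Muc4, 0.24 for Agr2, 0.41 for Spdef and -0.27 for Foxa1), with an adjusted p of 0.67 by exact two-sided permutation, or for Spearman's rho (0.66, 0.37, -0.03, 0.14 and -0.09 in the same order), with adjusted p from 0.88 to 1. Without the 2 pairs farthest from the median serous difference, r over 4 pairs ran from -0.16 for Spdef to 0.48 for Foxa1.

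**Figure D3:**
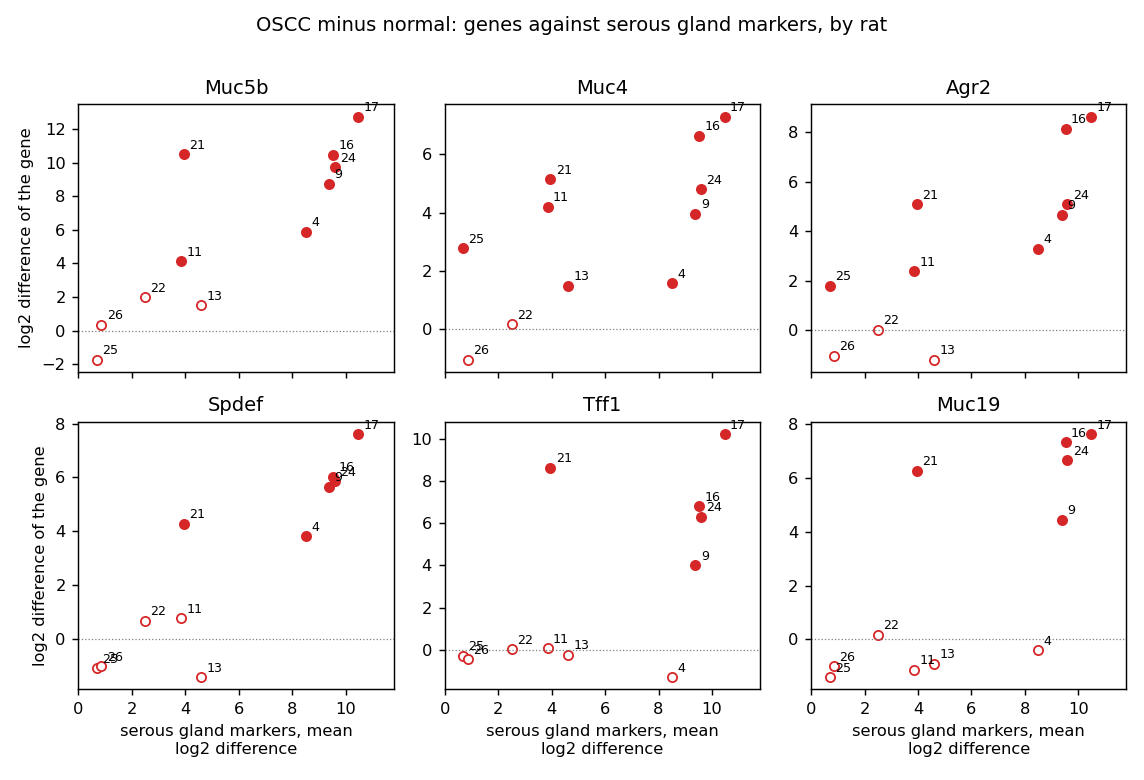
Log2 difference of OSCC minus normal tissue for 6 members (vertical axes) against the mean log2 difference of 13 serous gland markers (horizontal axes), 1 point per rat with its animal number. Filled points were well above background in OSCC; rat 21 lies high for every gene at a serous difference of 3.95, and rat 4 lies low for Tff1 and Muc19 at 8.50.

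Array batches divide the tissues as well. The scan day was shared by all normal pieces and the OSCC pieces of rats 4 and 9, while the remaining 9 carcinomas were scanned on a different day, and no slide holds both tissues. In the 2 pairs scanned on the same day the differences were 5.88 and 8.75 for Muc5b, 3.30 and 4.68 for Agr2, 3.81 and 5.65 for Spdef, and 1.59 and 3.96 for Muc4 (rats 4 and 9). For Tff1 they were -1.29 and 4.00, and for Muc19 -0.41 and 4.44. With scan day as a further term, which leaves the tissue effect to these 2 pairs, none of the 7 members found by name passed, and over all 30367 probes 3 did. At an unadjusted p below 0.05 and the same fold, 1 of the 7 passed with that term, and 5599 of the 19167 named genes did, in either direction. The 75th percentiles of rats 4 and 9 were 1414 and 894.7 units in OSCC and 446 and 379.3 in normal tissue. The part of this scaling in the 5599, dim probes included, was not tested. Carcinomas of the same slide differed in the members: on the slide of rats 11, 13, 16 and 17, Muc5b read -2.0, -4.59, 4.44 and 6.64, and on that of rats 21, 22, 24 and 25 it read 4.11, -4.42, 3.34 and -6.65.

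Other genes of mucus formation were taken in 4 lists. Of 81 of these genes on the array, 26 rose in OSCC and 4 fell, and the background shares over all named genes were 7.48% and 7.24%. The lists were chosen with results of these data known, so these counts are a description. Among 11 other mucins, Muc15, a membrane mucin, rose by 1.13 (SE 0.30, adjusted p = 0.012), and none fell. The call of Muc15 was lost without rat 22, without rats 21, 22 and 24 together, and when each array was centred on its median. It was also lost with the scan day term and with another background correction (normexp, described at the end). The goblet cell mucins Muc2 and Muc5ac, and also Muc3a, Muc13, Mucl3 and Prol1, were well above background in none of the 22 pieces, and the list had a median difference of -0.49. Their differences lay between -0.66 and -0.49 on arrays whose 75th percentile of signal was 236.8 to 654.9 units in normal tissue and 338.7 to 1414 in OSCC, and the part of this scaling in differences of such dim probes was not tested. Muc20 and Muc16 were well above background in 5 and 3 OSCC pieces and in no normal piece, with differences of 1.51 (adjusted p = 0.094) and 0.53 (adjusted p = 0.50). Thus Muc2 and Muc5ac were not detectable at this signal in the pieces where Muc5b and Muc19 were.

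Of 33 genes of mucin-type O-glycosylation, 13 rose and 4 fell, with a median difference of 0.46. The first step, the transfer of N-acetylgalactosamine to the protein, is made by the Galnt enzymes. Of 14 on the array, Galnt6 (2.47), Galnt10 (2.19), Galnt12 (2.03), Galnt7 (1.72), Galnt4 (1.62), Galnt3 (1.11) and Galnt1 (1.04) rose, the values being log2 differences. Galnt16 fell by 1.70, Galnt5 fell by 1.55 and Galnt18 fell by 1.16. Galnt6 was higher in 11 of 11 pairs, with normal levels from -2.41 to -1.08 and OSCC levels from -1.22 to 2.92 (SE 0.30, adjusted p = 0.00021). C1galt1, which makes the core 1 structure, rose by 1.69 (SE 0.20, adjusted p = 0.00019) in 11 of 11 pairs. Gcnt3, which makes the core 2 and core 4 branches of mucins, was well above background in no normal piece and in 7 OSCC pieces. It rose by 3.43 (SE 0.91, adjusted p = 0.012), from a mean of -6.05 to -2.62, at least 2.43-fold. B4galnt3 (2.47), the sialyltransferases St3gal4 (1.35) and St6galnac2 (1.24) and the fucosyltransferase Fut2 (1.12) also rose. St6galnac1, the sialyl-Tn synthase, fell by 1.15 (SE 0.35, adjusted p = 0.023), from a mean of -4.52 with 2 arrays well above background to -5.66 with 0, at least 1.01-fold lower. Galnt10 had no normal array well above background and was at least 1.97-fold higher.

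Of 27 mucous and secretory cell factors, 10 rose and none fell, with a median difference of 0.84. Besides Tff2 they were the mucus component Fcgbp (4.10, at least 4.12-fold), the immunoglobulin transporter Pigr (3.97, at least 3.87-fold), the secretoglobin Scgb3a1 (3.82, at least 4.15-fold) and Wfdc2 (2.90), a protease inhibitor-like secreted protein. The others were transcription factors: Creb3l1 (2.47), Foxa2 (2.14, at least 1.03-fold) and the epithelial ETS factors Ehf (2.93), Elf5 (2.08) and Elf3 (1.37). Foxa2 was well above background in 5 OSCC pieces and in no normal piece. Its SE was 0.76 and its adjusted p 0.039 by limma, with 8 pairs higher and 3 lower. Ehf was higher in 11 of 11 pairs (SE 0.32, adjusted p = 0.00015), with OSCC levels from -2.70 to 0.49. Fcgbp had an SE of 1.24 and an adjusted p of 0.022 and ran from -6.85 to 3.72 in OSCC. The goblet cell genes Clca1, Retnlb and Agr3 were well above background in none of the 22 pieces. Xbp1, a factor of secretory capacity, differed by 0.84 (SE 0.17, adjusted p = 0.0031), under the 2-fold limit. Of 10 goblet-inducing signals and ErbB partners, Areg, an EGF receptor ligand, rose by 3.97 (SE 0.82, adjusted p = 0.0031) and Il4r, the interleukin 4 receptor, by 1.46 (SE 0.23, adjusted p = 0.00080), and none fell. Il4 was well above background in no piece and Il13 in 1 OSCC piece. Erbb2, the partner of Muc4, was well above background on all arrays and differed by -0.88 (SE 0.16, adjusted p = 0.0016), lower in 11 of 11 pairs and under the 2-fold limit.

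**Figure D4:**
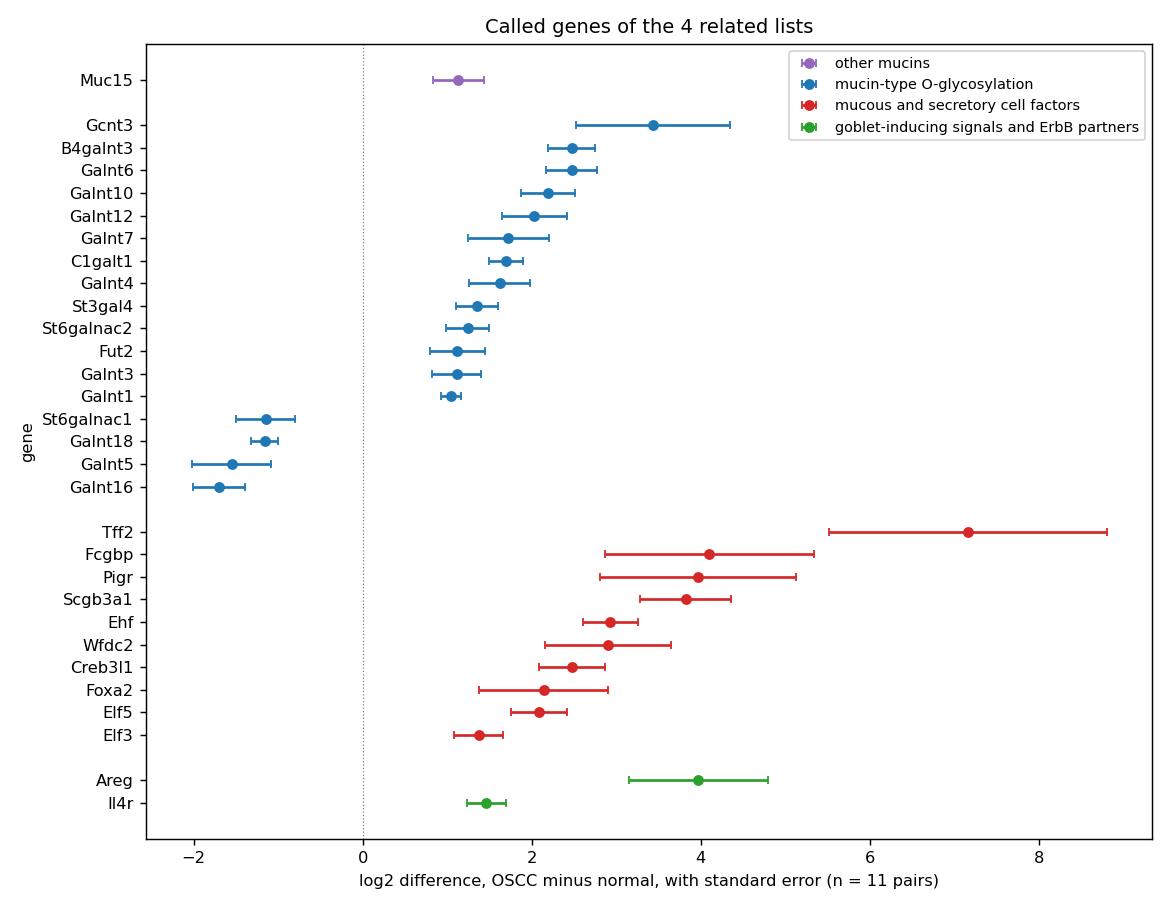
Log2 difference of OSCC minus normal tissue with its standard error (horizontal axis, 11 pairs) for the 30 genes of the 4 related lists that passed the test. Tff2 lies at 7.16, and the 4 genes that fell belong to mucin-type O-glycosylation.

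The genes whose levels over the 11 OSCC arrays followed a member most closely were ranked by Spearman's rho among the named genes well above background on at least 6 OSCC arrays. For Spdef they were Tspan1 (0.99), Lrrc26 (0.98) and Stard10 (0.98). For Muc5b they were Gp2, the zymogen granule protein (0.96), Spdef itself (0.96) and Tspan1 (0.95). For Agr2 they were Galnt7 (0.96), the sulfate donor synthase Papss2 (0.96) and the blood group transferase Abo2 (0.95). For Muc4 they were Rab19 (0.96), Tgoln1 (0.95) and Tmem167b (0.95). For Foxa1 they were Ormdl2, Galnt10 and LOC680322, each at 0.98. At these digits the third place was shared, by Sec61a1 and Slc39a11 for Foxa1 (0.98) and by Scgb3a1, Fam3d and Gmds for Agr2 (0.95). With 11 arrays and 12287 genes ranked for Muc5b, such values are a description with no test. Of these genes Tspan1 was higher by 3.1 (adjusted p = 0.015), Lrrc26 by 2.99 (adjusted p = 0.0093), Gp2 by 4.83 (adjusted p = 0.015) and Abo2 by 2.59 (adjusted p = 0.010), while Rab19 differed by 0.05 (adjusted p = 0.85).

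RefSeq promoter windows (assembly GRCr8, 250 bases before to 50 after the annotated start) were given for 6 of the 9 members: Muc19, Muc1, Muc4, Agr2, Tff3 and Spdef. Both strands were searched for short motifs. The forkhead motif TGTTTAC was held by 3.78% of all 33469 promoter windows of this length. Its variant TATTTAC was held by 3.51%. The TATA box, written as TATAAA, was held by 14.2%. The ETS motif CCGGAA was held by 15.0% of windows. A related motif that Spdef prefers, CCGGAT, was held by 6.64%. None of these overlapped another in the windows of the members. Muc19 held the first forkhead motif starting 111 bases before the start and a TATA box 42 bases before it, and its window is identical to that of Smgc. Spdef held the forkhead variant on the opposite strand, 77 bases before the start, where the printed strand shows its reverse complement. A TATA box also stood 23 bases before the start of Tff3 and 33 before that of Muc1. None of the 5 motifs was found in the windows of Agr2 and Muc4. The parts before the start are printed for the gel-forming mucin, the trefoil peptide and the transcription factor with a match, with the matches in capitals. They are chr7:124897174-124897423 (plus strand), chr20:9199334-9199583 (minus strand) and chr20:5787686-5787935 (minus strand), in this order. A match of letters is not evidence of binding.
Muc19: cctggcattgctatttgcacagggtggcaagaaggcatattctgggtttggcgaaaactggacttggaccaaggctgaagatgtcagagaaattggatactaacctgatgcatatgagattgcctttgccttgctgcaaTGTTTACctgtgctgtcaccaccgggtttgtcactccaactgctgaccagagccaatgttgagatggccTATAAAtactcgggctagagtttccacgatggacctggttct
Tff3: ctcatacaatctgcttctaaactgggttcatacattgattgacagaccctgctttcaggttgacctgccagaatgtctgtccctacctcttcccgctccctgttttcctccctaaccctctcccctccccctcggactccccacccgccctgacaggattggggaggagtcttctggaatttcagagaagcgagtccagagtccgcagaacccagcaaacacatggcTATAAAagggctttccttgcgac
Spdef: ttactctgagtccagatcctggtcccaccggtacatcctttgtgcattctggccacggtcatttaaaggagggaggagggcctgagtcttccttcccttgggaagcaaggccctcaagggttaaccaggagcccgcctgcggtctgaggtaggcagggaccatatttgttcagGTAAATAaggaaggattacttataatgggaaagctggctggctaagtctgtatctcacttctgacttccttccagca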

How the data were processed

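RNA of 11 pairs of OSCC and adjacent normal tongue was measured on Agilent one-color arrays by the authors, who used Feature Extraction 9.5.3.1 per the file headers. The deposited intensity values are background-subtracted processed signals in arbitrary units. The authors also deposited signals scaled by the 75th percentile of each array, as a linear ratio to that percentile, which were used as an alternative. Spots marked as outliers (9196, 0.975%) and 1377 control spots were left out, log2 signals of a probe's spots were averaged over 30367 probes, and the 75th percentile of each array was subtracted. No filter on dim probes was applied. For 68 probes some array gave no value. OSCC was compared with normal tissue with limma 3.58.1 in R 4.3.3, fitting a rat and a tissue term because each rat gave both pieces. Deviations of the 2 pieces of a rat had correlations across probes from -0.21 to 0.24. The number of arrays limits the precision, and dim genes are further limited by background. The test was tried on simulated data beforehand. The members and lists were chosen with earlier results of these data known. Named are the 9 members, every called gene of the 4 lists, and the 3 genes most like each member that was well above background on at least 6 OSCC arrays. Some genes that share the printed rho of the third are also named. Other genes are named as markers or as list members with no call, chosen after their values were seen. Of the genes listed, 8 other mucins and B4galnt2 had no probe under the names searched. Alternatives were other scalings, background correction, probe filters, batch terms, the methods' t-test, the pairing and left-out pairs.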

Additional observations from a re-analysis of the deposited data

How the results depend on the processing

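Without the rat as replicate block, 3 of the 7 members found by name were called, as in the paired analysis, and 4227 probes against 4201. The following alternatives moved a count by over 1.5 times. With normexp background correction (offset 50), which adds a constant that compresses dim signals, 0 of 7 members, 1701 probes, 0 other mucins, 5 O-glycosylation genes and 4 mucous and secretory factors were called. With scan day as a further term, 0 members, 3 probes and 0 genes of each of the 4 lists were called. Without rats 21, 22 and 24, which the study names as variable, 1 member, 6924 probes, 0 other mucins and 4 goblet-inducing signals and ErbB partners were called. In the 9 pairs scanned on different days, an alternative added after seeing the data, 0 members were called, and Agr2 had a difference of 3.22 (adjusted p = 0.055). Of all named genes, 6.21% were called higher and 5.77% lower in these 9 pairs. With Muc5b and Muc4 included, also added later, 5 members were called. Quantile normalization called 2 other mucins, and centring each array on its median called 0. That centring moved the median over all named genes from -0.21 to -0.41 and the shares called higher and lower from 7.48% and 7.24% to 5.55% and 10.7%, while quantile normalization moved the median to -0.04. Leaving out 1 pair gave 1 to 3 members, 3649 to 4799 probes, 0 to 1 other mucins (0 without rat 22), 14 to 18 O-glycosylation genes, 8 to 11 mucous factors and 2 to 3 goblet-inducing signals; 1 member was called without rat 9 or 16. The difference of Muc1 turned sign with median centring (-0.16), normexp (-0.03), the scan day term (-0.64), without rats 21, 22 and 24 (-0.30) and without rat 17 (-0.18) or 24 (-0.19), and it lay between -0.19 and 0.18 over the 11 left-out pairs. With the scan day term Tff3 read -0.67 and Foxa1 0. Muc5b and Muc4 lost their call with normexp (3.12 and 0.74) and with scan day (7.31 and 2.77) and with none of the other alternatives. Tff1 lost its call under 15 of 24 alternatives, among them slide as a random block (2.94) and the methods' t-test after Benjamini-Hochberg adjustment (adjusted p = 0.075). Spdef lost its call under 7 of 25 alternatives and Agr2 under 3 of 25. Requiring probes well above background on at least 6 of 22 arrays left no value for Muc19, Muc1, Tff1 and Tff3, and 2 members were called. Of the 12613 named genes kept, 10.8% were called higher and 9.69% lower. Spdef, Muc5b and Muc4 met this filter through OSCC arrays alone, and Agr2 through 8 OSCC and 2 normal arrays. Their calls under it are therefore no separate support. The cause of these shifts was not tested.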
